A study of Mus musculus with 6 samples.

Results

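The histone genes of the mouse retina were followed across 6 two-colour arrays, with the linker histones, among them H1f4, described apart from the core histones. Of 39429 array probes, 73 carried a histone gene by the older histone names (Hist1h to Hist4h, H1f, H2af and H3f), and they stood for 62 of the 19751 genes that could be named. Linker histones had 10 probes for 10 genes, and core histones had 63 probes for 52 genes. The group was singled out because H1f4 stood high for the compound SH-42 against control, so the H1f4 values, and every histone value for SH-42 against control, are given here as a description.

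Retinas came from adult male C57BL/6 mice, with 12 mice per group, that had received SH-42, SH-80 or, as the control, phosphate-buffered saline (PBS) by injection into the vitreous of the right eye. The stated dose was 1 µM, retinas were taken after 7 days, and 4 retinas were pooled into a tube. SH-42 and SH-80 are code names, and nothing on their structures is given. Each compound had 3 arrays, each setting compound RNA, labelled Cy3, against control RNA, labelled Cy5. The dyes were never exchanged, and the labels do not say which pools went on which array, so p-values measure the spread between these arrays, which may be technical. Signed values are log2 of Cy3 over Cy5. The deposited value table of the series runs the opposite way, so the direction against control is not settled, and higher or lower means Cy3 relative to Cy5 only. If the channels were exchanged, every sign would turn, and so would the difference between the compounds.

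Nucleosomes hold DNA wrapped around pairs of the core histones H2A, H2B, H3 and H4, while a linker histone H1 binds where the DNA enters and leaves and helps to compact the chromatin. Clustered histone genes are expressed mostly during DNA replication, and their mRNAs end in a stem-loop in place of a poly(A) tail, which the stem-loop binding protein Slbp recognises. Replacement histone genes lie outside the clusters, give polyadenylated mRNAs and are used outside S phase, as in the neurons of an adult retina, which no longer divide. Per the labels, the RNA was copied from an oligo-T primer. How far such a primer reaches mRNAs without a tail was not tested, and levels of different probes were not set against each other.

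Many clustered histone promoters share short motifs. Those of the linker genes H1f4, H1f2 and H1f5 are shown, and those of H2ac4, H2aw and H2bu2, picked after their values were seen. They are taken from RefSeq (build GRCm38.p6), cover the 150 bases before the transcript start, and read 5′ to 3′ on the gene's strand. Capitals mark, on either strand, CCAAT, the TATA motif TATAAA, the H1 box AAACACA and the octamer ATTTGCAT.
H1f4, linker, chr13:23622559-23622708, minus strand: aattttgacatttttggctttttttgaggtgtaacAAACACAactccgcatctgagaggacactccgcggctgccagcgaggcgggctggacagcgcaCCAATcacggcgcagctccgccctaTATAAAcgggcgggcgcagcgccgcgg
H1f2, linker, chr13:23738657-23738806, plus strand: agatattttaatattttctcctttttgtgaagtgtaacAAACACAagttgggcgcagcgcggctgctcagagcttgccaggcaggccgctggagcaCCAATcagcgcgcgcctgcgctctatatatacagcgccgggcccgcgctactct
H1f5, linker, chr13:21780626-21780775, minus strand: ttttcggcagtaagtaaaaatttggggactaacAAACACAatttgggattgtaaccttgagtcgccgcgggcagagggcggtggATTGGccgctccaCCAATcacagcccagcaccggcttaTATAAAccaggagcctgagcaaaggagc
H2ac4, core H2A, chr13:23750938-23751087, plus strand: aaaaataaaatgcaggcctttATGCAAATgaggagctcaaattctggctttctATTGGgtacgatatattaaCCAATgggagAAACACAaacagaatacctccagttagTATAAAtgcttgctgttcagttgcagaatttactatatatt
H2aw, core H2A, chr11:58954535-58954684, plus strand: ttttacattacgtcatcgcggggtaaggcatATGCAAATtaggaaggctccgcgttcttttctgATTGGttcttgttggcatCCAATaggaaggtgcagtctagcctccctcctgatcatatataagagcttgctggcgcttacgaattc
H2bu2, core H2B, chr11:58948761-58948910, plus strand: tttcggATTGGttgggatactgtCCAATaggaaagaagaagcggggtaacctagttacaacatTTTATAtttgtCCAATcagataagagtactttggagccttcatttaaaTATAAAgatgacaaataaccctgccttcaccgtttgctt

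H1f4 and H1f2 share the layout of an H1 box followed by CCAAT closer to the start, and H1f5 has it too, with a second CCAAT on the other strand. Over the 250 bases before the start, the H1 box was in 5 of 6 clustered linker promoters, 4 of 37 clustered core promoters, 0 of 4 replacement linker promoters and 6.25% of 32851 promoters of that length. CCAAT was in 6 of 6 clustered linker and 30 of 37 clustered core promoters, against 33.8% of all promoters. The clustered core classes differed, with 14 of 14 for H2A, 10 of 10 for H2B, 4 of 6 for H3 and 2 of 7 for H4 (28.6%). The octamer was in 7 of 14 clustered H2A and 6 of 10 H2B promoters, in 0 of 6 clustered linker promoters and in 1.6% of all. TATAAA was in 4 of 6 clustered linker and 17 of 37 clustered core promoters, against 12.4% of all. A promoter was found for 55 of the 62 genes. These matches describe letters in a window and do not show that a factor binds there.

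Of the 73 probes, 69 passed the filter on dim probes (well above background, in Cy3 or in Cy5, on 3 or more arrays) and were tested. H1f3, H2ac8, H2ab1 and H3c8 were left out by that filter. Both channels were above background on all 6 arrays for 58 probes, while 8 of the 69 were never above it in Cy3. The rod markers, which define most of the retina's cells, were all 10 above background in both channels on every array. Lens markers were present too, with 12 of 12 measured and a log2 summed signal of 15.82 to 19.21 per array and channel.

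H1f4, a clustered linker gene on chromosome 13 (older name Hist1h1e, probe A_51_P464822), had log2 ratios of 0.49, 0.87 and 0.56 on SH-42 replicates 1 to 3. On SH-80 replicates 1 to 3 its log2 ratios were -0.14, -0.09 and -0.08. All 3 SH-42 arrays were above 0 and all 3 SH-80 arrays below it, with no overlap. In the fit over all probes, H1f4 was 0.64 ± 0.0815 for SH-42 (log2 ± SE, n = 3, limma adjusted p = 0.0428), a 1.56-fold ratio, and -0.10 ± 0.0815 for SH-80 (limma adjusted p = 0.4). SH-42 minus SH-80 was 0.74 ± 0.115, with a 95% interval of 0.47 to 1.02, and did not pass after adjustment (limma adjusted p = 0.699).

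The H1f4 signal differed between the compounds mainly in the channel labelled control. In Cy3, its normalized log2 signal was 12.71, 12.73 and 12.63 on the SH-42 arrays and 12.58, 12.61 and 12.58 on the SH-80 arrays, a span of 0.148. In Cy5, the control, it was 12.22, 11.86 and 12.07 on the SH-42 arrays and 12.72, 12.70 and 12.66 on the SH-80 arrays, a span of 0.861. The mean of SH-42 less that of SH-80 was 0.101 in Cy3 and -0.644 in Cy5. What made the Cy5 levels differ was not tested. Wider spread in Cy5 was common on these arrays: it held for 59 of 69 histone probes (85.5%) and for 78.9% of all probes. The median SD over the arrays was 0.0609 in Cy3 and 0.169 in Cy5 for histones, and 0.0692 and 0.14 for all probes.

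**Figure D1:**
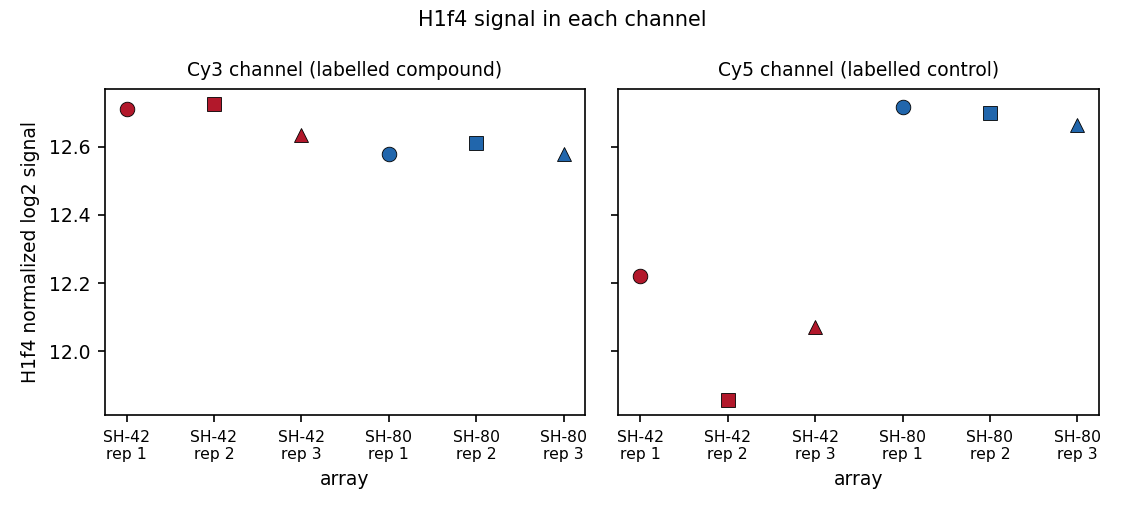
Normalized log2 signal of H1f4 (vertical axis) on each of the 6 arrays (horizontal axis), in the Cy3 channel labelled with the compound (left) and the Cy5 channel labelled control (right). Each point is 1 array, red for SH-42 and blue for SH-80. Cy3 spans 0.148 log2 units, while in Cy5 the SH-42 arrays (11.86 to 12.22) lie below the SH-80 arrays (12.66 to 12.72).

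The H1f4 value for SH-42 was positive under all 19 alternative settings, from 0.15 to 1.18, and passed the threshold in 8 of them. Without SH-42 replicate 1 it was 0.72 ± 0.0825 (limma adjusted p = 0.026), and without any other single array it lay at 0.53 to 0.68 and no longer passed (limma adjusted p from 0.0707 to 0.269). With arrays centred on the median without loess, H1f4 was 0.15 for SH-42 (limma adjusted p = 0.243) and passed as lower for SH-80 at -0.40 (limma adjusted p = 0.0339). On the slide that held arrays of both compounds, SH-42 minus SH-80 was 0.67 ± 0.0993 (limma adjusted p = 0.994, 1 SH-42 array, assumed to vary like the SH-80 arrays). Next to H1f4 among the measured histone genes of chromosome 13 lie H2bc6 and H2ac6, both core histone genes. H2bc6 had -0.23 for SH-42 and -0.22 for SH-80, and H2ac6 had -0.06 and 0.19. Their SH-42 minus SH-80 values were -0.01 and -0.25 (limma adjusted p = 0.966 and 0.699).

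The other clustered linker genes tested did not pass in any comparison. H1f2, a somatic linker histone, had log2 ratios of 0.29, 0.11 and -0.01 on SH-42 and -0.01, -0.15 and 0.04 on SH-80 arrays. These groups overlap, and SH-42 minus SH-80 was 0.17 ± 0.108 (95% interval -0.09 to 0.43, limma adjusted p = 0.699). H1f1, another somatic linker histone, had -0.07, -0.08 and -0.25 on SH-42 and -0.26, -0.0029 and -0.18 on SH-80 arrays. Its difference between compounds was 0.02 ± 0.102 (95% interval -0.23 to 0.26).

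H1f5, a somatic linker histone, varied the most of the linker probes. Its log2 ratios were -1.47, -0.06 and -0.37 on SH-42 and 0.21, -0.21 and 0.08 on SH-80 arrays. The value of -1.47 lay on SH-42 replicate 1, where Cy5 was 9.52 against 8.04 to 8.57 on the other arrays, while Cy3 stayed between 8.03 and 8.25 on all 6. SH-42 minus SH-80 was -0.66 ± 0.36 (95% interval -1.53 to 0.21, limma adjusted p = 0.699), and -0.24 ± 0.154 without SH-42 replicate 1 (limma adjusted p = 0.949). On that replicate 15 of 17 measured S phase genes were negative, and their summed log2 signal in Cy5 was 14.65 against 14.09 to 14.25 on the other arrays. Whether both have a common source was not tested.

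Of the linker genes known from germ cells, H1f6 and H1f7 were dim and H1f8 was not. H1f6, the testis linker histone, was above background in Cy5 on all arrays but in Cy3 on none, so no direction is given. Its log2 ratios were -0.32, -0.07 and -0.45 on SH-42 and -0.32, -0.37 and -0.095 on SH-80 arrays. H1f7, the linker histone of spermatids, was likewise above background in Cy5 only. It had -0.29, -0.06 and -0.02 on SH-42 and -0.16, 0.07 and -0.11 on SH-80 arrays, and its direction is not read either. The values of both also changed with the normalization. Under median centring the fitted log2 ratio of H1f6 was -0.09 for SH-42 and -0.08 for SH-80. That of H1f7 was 0.17 for SH-42 and 0.16 for SH-80. H1f8, the oocyte linker histone, was above background in both channels. Its ratios were 0.03, -0.21 and -0.37 on SH-42 arrays, and those of SH-80 replicates 1 to 3 were -0.07, 0.06 and -0.20. H1f8 was -0.18 ± 0.0908 for SH-42 (limma adjusted p = 0.272) and -0.07 ± 0.0908 for SH-80 (limma adjusted p = 0.619), and with median centring it passed for SH-42 at -0.51 (limma adjusted p = 0.0237).

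Neither H1f0 nor H1f10, replacement linker genes, passed for either compound. H1f0, which accumulates in cells that have stopped dividing, was above background in Cy5 on all arrays but in Cy3 on only 1 of 3 SH-42 and 2 of 3 SH-80 arrays, so its ratios are uncertain. They were 0.13, 0.01 and 0.06 on SH-42 and 0.19, 0.08 and 0.19 on SH-80 arrays. SH-80 against control was 0.16 ± 0.0559 (limma adjusted p = 0.104), and 0.16 ± 0.0497 without SH-42 replicate 1, where it passed (limma adjusted p = 0.0492). With median centring H1f0 passed for both, at 0.27 for SH-42 and 0.34 for SH-80 (limma adjusted p = 0.0452 and 0.0417). SH-42 minus SH-80 was -0.09, with a 95% interval of -0.28 to 0.10. H1f10, a variant expressed in many tissues, had 0.27, 0.07 and -0.11 on SH-42 and -0.05 and 0.23 on SH-80 arrays. The spot of SH-80 replicate 2 was an outlier and had no value. Of the 9 linker probes tested, 0 passed for SH-80 against control (limma, 2 at an unadjusted p under 0.05). Of all 29467 probes 13.9% passed there, and 35.1% unadjusted. Their median log2 ratio was -0.067 for SH-80, beside -0.027 for all probes, and -0.124 for SH-42, beside -0.032.

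**Figure D2:**
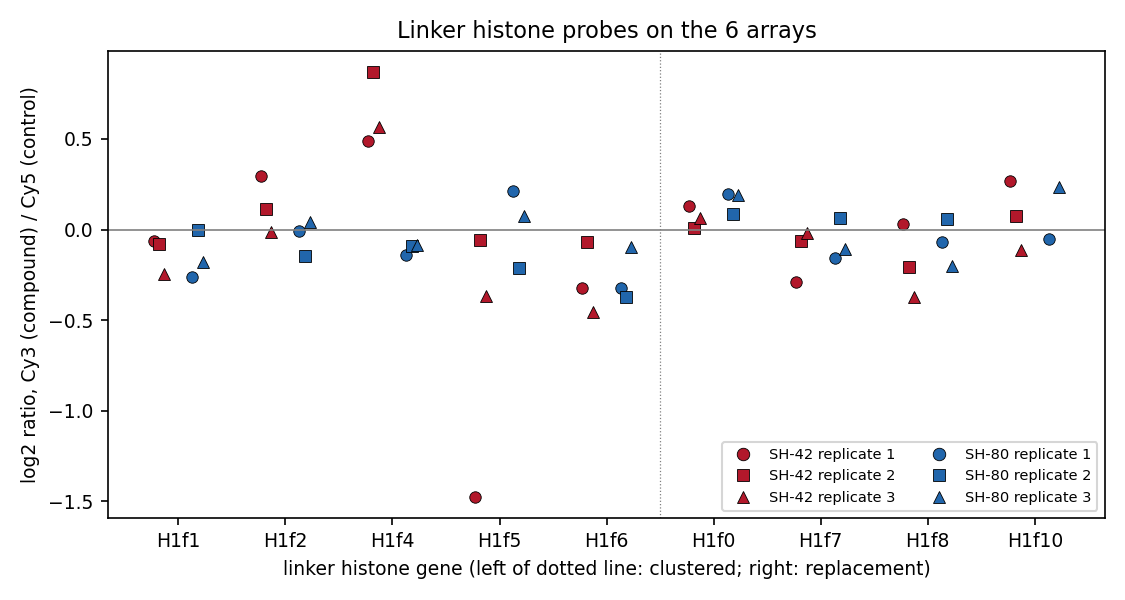
Log2 ratio of Cy3 over Cy5 (vertical axis) of the 9 tested linker histone probes (horizontal axis, clustered genes left of the dotted line). Each point is 1 array, red for SH-42 and blue for SH-80, with a shape per replicate. The 3 SH-42 points of H1f4 (0.49 to 0.87) lie above its SH-80 points, and H1f5 lies at -1.47 on SH-42 replicate 1.

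For SH-80 against control, 5 of the 69 histone probes passed (7.25%, limma with Benjamini-Hochberg adjustment over all probes), beside 13.9% of all probes. Of the 5, 1 had a positive value (4.6% of all probes passed as higher) and 4 a negative one (9.31% as lower). Among the 4 is H2bc22, whose Cy3 signal was never above background, so its sign is not read. Limited to probes above background in both channels on all arrays, 4 of 58 passed, 1 higher and 3 lower, beside 10.9% of all such probes. All 5 were core histones, and 5 of 60 core probes is 8.33%. In the same comparison 7 of 12 lens markers passed as higher and 0 as lower (median 2.21). Their medians on SH-80 replicates 1 to 3 were 3.29, 1.01 and 3.02, and 5 were negative on replicate 2. The log2 summed lens signal on these arrays was 15.82, 18.7 and 16 in Cy5 and 19.21, 18.95 and 19.13 in Cy3. The microglia markers had a median of 0.879 with 0 higher and 1 lower of 10. The part of these markers in the histone values was not tested. For SH-42 against control, 1 of 69 passed (1.45%), H1f4 itself, beside 0.455% of all probes, 0.0373% that were higher and 0.417% that were lower. With median centring in place of loess, 42 of 69 passed for SH-42, 4 higher and 38 lower, beside 37.1% of all probes, and the histone median was -0.494 beside -0.228 for all probes. At an unadjusted p under 0.05, 15 histone probes passed for SH-80, beside 35.1% of all probes, and 19 for SH-42, beside 23.2%.

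H2ax, the H2A variant whose phosphorylation marks DNA breaks, was the highest of the 5. Its log2 ratios were 0.53, 0.49 and 0.57 on the SH-80 arrays and 0.30, 0.43 and 0.56 on the SH-42 arrays. All 6 were positive, and the groups overlapped. H2ax was 0.53 ± 0.0658 for SH-80 (limma adjusted p = 0.023), a 1.45-fold ratio, and 0.43 ± 0.0658 for SH-42 (limma adjusted p = 0.0701). The compounds differed by -0.10 ± 0.0931 (SH-42 minus SH-80, 95% interval -0.33 to 0.12). Its Cy5 signal was steady, at 11.14 to 11.26, and Cy3 ran from 11.55 to 11.76. With arrays centred on the median without loess, H2ax was 0.26 for SH-80 (limma adjusted p = 0.182) and -0.01 for SH-42 (limma adjusted p = 0.952), so its SH-42 value was not positive there. Without SH-42 replicate 1 H2ax passed for SH-42, at 0.495 ± 0.0625 (limma adjusted p = 0.0264). Median centring moved the median of all probes to -0.139 for SH-80 and -0.228 for SH-42.

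The other H2A replacement genes that the study measured did not show one direction. H2aj, a variant linked to differentiated cells, passed as lower by one probe (A_55_P2099540), with ratios of -0.29, -0.26 and -0.34 on SH-80 and -0.17, -0.13 and -0.23 on SH-42 arrays. That probe was -0.30 ± 0.0528 for SH-80 (limma adjusted p = 0.03). Its other probe lay at 0.16 ± 0.155, so the probes of this gene disagree in sign. H2az1, the H2A.Z gene found at active promoters, lay at -0.03 and -0.02 for SH-80 by its 2 probes. Macroh2a1, which carries a large extra domain and is found in silent chromatin, lay at 0.15 and -0.06. None of these 4 values passed, and for H2az1 the difference between compounds was -0.06 (95% interval -0.23 to 0.12) and -0.13 (95% interval -0.33 to 0.07).

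Clustered H2A genes encode nearly identical proteins, so a probe may read more than its own gene. Of their 14 tested probes, 12 were positive on each of the 3 SH-80 arrays, with medians of 0.197, 0.077 and 0.152. Of all probes, 13568 of 29466, 13697 of 29458 and 13521 of 29462 were positive on these arrays. The 14 include H2ac21, which was never above background in Cy3. The median of the 14 was 0.109 and 0.174 on SH-42 replicates 2 and 3. On SH-42 replicate 1 it was -0.474, with 12 of 14 probes negative and 10 below -0.3. In the fit 0 of the 14 passed for SH-80 (limma, 2 unadjusted), beside 13.9% of all probes and 35.1% unadjusted. H2ac1, the testis H2A gene, had 0.13, 0.31 and 0.16 on SH-80 arrays and 0.39, 0.06 and 0.22 on SH-42 arrays, and its SH-80 value of 0.20 ± 0.0783 did not pass (limma adjusted p = 0.124). H2ac4 had -1.12, -0.41 and -0.41 on SH-42, and SH-80 replicates 1 to 3 gave -0.11, -0.23 and -0.41. Its SH-80 coefficient was -0.25 ± 0.15 (limma adjusted p = 0.278), and -0.25 ± 0.0667 without SH-42 replicate 1 (limma adjusted p = 0.03).

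A pair of clustered genes outside the main cluster, H2aw and H2bu2 on chromosome 11, stood high on SH-42 replicate 1. H2aw, an H2A gene, had 0.90, 0.16 and 0.22 on SH-42 and 0.13, 0.28 and 0.05 on SH-80 arrays. H2bu2, an H2B gene, had 0.95, 0.36 and 0.22 on SH-42 and 0.27, 0.30 and 0.13 on SH-80 arrays. Every value of both genes was positive under loess, and the groups overlap. The sign did not hold under median centring, where none passed. There H2aw was -0.11 for SH-42 and -0.15 for SH-80, and H2bu2 was -0.04 and -0.08. On SH-42 replicate 1 the H2aw signal in Cy5 was 12.40, against 13.06 to 13.28 on the other arrays, while Cy3 lay between 13.28 and 13.35 on all 6. Without that replicate, SH-42 minus SH-80 was 0.03 ± 0.0945 for H2aw and 0.06 ± 0.09 for H2bu2 (limma adjusted p = 0.976 and 0.956).

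SH-42 replicate 1 stood apart over all probes as well. Across probes, which are not independent replicates, its log ratios had a correlation with the other arrays of -0.144 to 0.169, and the other pairs lay at 0.472 to 0.86. On it the bipolar cell markers had a median ratio of 1.13, against -0.297 to -0.061 elsewhere. The Muller glia markers had -1.08, against 0.021 to 0.141, and the microglia markers -1.67, against 0.022 to 1.07. Lens markers were 1.90 there and ranged from 0.331 to 3.29 elsewhere. Skeletal muscle markers set 2 arrays apart, not only this one. Their log2 summed Cy5 signal was 13.61 on SH-42 replicate 1 and 13.76 on SH-80 replicate 2, against 10.27 to 10.55 on the other arrays. The part of all these markers in the histone values of either array was not tested. In whole tissue, fewer cells of a type and less RNA per cell cannot be told apart.

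**Figure D3:**
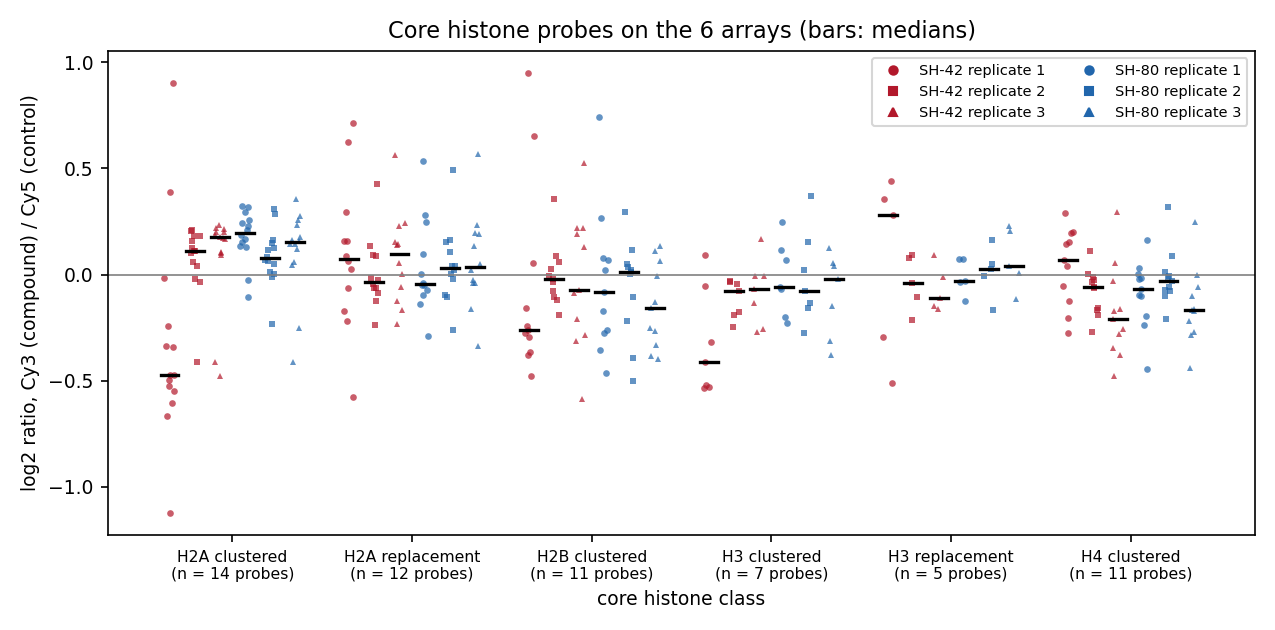
Log2 ratio of Cy3 over Cy5 (vertical axis) of the 60 tested core histone probes by class (horizontal axis). Each point is 1 probe on 1 array, red for SH-42 and blue for SH-80, with a shape per replicate, and each bar is the median of the class on that array. Clustered H2A probes have a median of -0.474 on SH-42 replicate 1 and of 0.077 to 0.197 on the other arrays.

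Of 11 clustered H2B probes, 3 passed for SH-80 (27.3%), beside 13.9% of all probes. H2bc18 and H2bc8 passed as lower and 0 as higher, beside 9.31% lower and 4.6% higher of all probes. The third, H2bc22, entered the test through its Cy5 signal alone, so it is not read as lower. H2bc18 had ratios of -0.46, -0.39 and -0.40 on SH-80 and -0.16, -0.19 and -0.59 on SH-42 arrays. It was -0.42 ± 0.0915 for SH-80 (limma adjusted p = 0.038). H2bc8 had -0.35, -0.22 and -0.39 on SH-80 and -0.24, -0.01 and -0.21 on SH-42 arrays, and was -0.32 ± 0.0697 for SH-80 (limma adjusted p = 0.038). Under median centring, with the processed signals and with the deposited value table, H2bc8 no longer passed (limma adjusted p = 0.118, 0.0628 and 0.0943). In these settings H2bc18 still passed (limma adjusted p = 0.021, 0.0257 and 0.0365). H2bc22 passed with a limma adjusted p of 0.0383, but its Cy3 signal was never above background, so neither a size nor a direction is given, and it did not pass under median centring (limma adjusted p = 0.438). The 3 genes encode replication-dependent H2B, and their probes may share sequence with other H2B genes. The 3 did not pass for SH-42 (limma adjusted p from 0.154 to 0.246). SH-42 minus SH-80 was 0.11 for H2bc18 (95% interval -0.21 to 0.42, limma adjusted p = 0.754) and 0.17 for H2bc8 (95% interval -0.07 to 0.40, limma adjusted p = 0.699).

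Of 7 clustered H3 probes, 0 passed for SH-80 (limma, 2 unadjusted), beside 13.9% of all probes and 35.1% unadjusted. H3c15 had ratios of -0.32, -0.25 and -0.07 on SH-42 and 0.25, 0.37 and 0.04 on SH-80 arrays. The groups did not overlap, and SH-42 minus SH-80 was -0.43 ± 0.118 (95% interval -0.72 to -0.15, limma adjusted p = 0.699). H3c15 in Cy5 was 11.66 to 11.74 on SH-42 and 11.20 to 11.55 on SH-80 arrays. H3c4 had -0.18 ± 0.0787 for SH-80 (limma adjusted p = 0.158). H3c1 was above background in Cy5 only, so no direction is given.

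The H3.3 genes, H3f3a and H3f3b, supply the H3 that is deposited outside replication. None of their 5 probes passed, beside 13.9% of all probes for SH-80. H3f3a was -0.05 and 0.15 for SH-80 by its 2 probes, and H3f3b was 0.12, 0.00 and -0.08 by its 3. Their 95% intervals for SH-42 minus SH-80 lay between -0.52 and 0.46. Of 11 H4 probes, 0 passed for SH-80 (limma, 2 unadjusted), beside 13.9% of all probes and 35.1% unadjusted. In the fit 9 of the 11 were negative, with a median of -0.112 beside -0.027 for all probes. H4c3 had ratios of -0.45, -0.21 and -0.44 on SH-80 and 0.07, -0.27 and -0.48 on SH-42 arrays, and was -0.37 ± 0.11 for SH-80 (limma adjusted p = 0.0704). H4c9 had 0.24 by one probe and -0.14 by the other. Of the 10 histone genes with several tested probes, 6 had probes that differed in sign for SH-80 and 3 for SH-42.

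The number of SH-80 calls changed with the arrays, the scaling and the slide term. Without any single SH-80 array 0 of 69 histone probes passed (limma, 5 to 10 unadjusted, 0% of all probes). Without SH-42 replicate 1, which adds only to the shared estimate of spread, 20 passed, 11 higher and 9 lower, beside 38% of all probes. With scale normalization between arrays 0 passed (limma, 11 unadjusted), beside 3.2% of all probes. With the slide as a fixed block 0 passed (limma, 6 unadjusted), beside 0% of all probes.

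SH-42 and SH-80 were set against each other at the same dose and day, as 1 pair of compounds. Of the 69 histone probes 0 passed (limma, 4 at an unadjusted p under 0.05), beside 0% of all probes, of which 3.86% passed unadjusted. The 4 were H1f4, H3c14, H3c15 and H3c1, whose Cy3 signal was not above background. For 46 of 69 probes the 95% interval of the difference lay within 0.5 log2 units of 0, and 23 reached beyond it, so the compounds were not shown to act alike on those. The 46 include probes never above background in Cy3, such as H1f6 (-0.33 to 0.30) and H2bc22 (-0.11 to 0.44). For such probes the interval does not bound a difference. The array ratios did not overlap for 12 of 69 probes, 5 with SH-42 higher and 7 with SH-42 lower. Over all probes these shares were 13.3%, 7.77% and 5.55%.

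**Figure D4:**
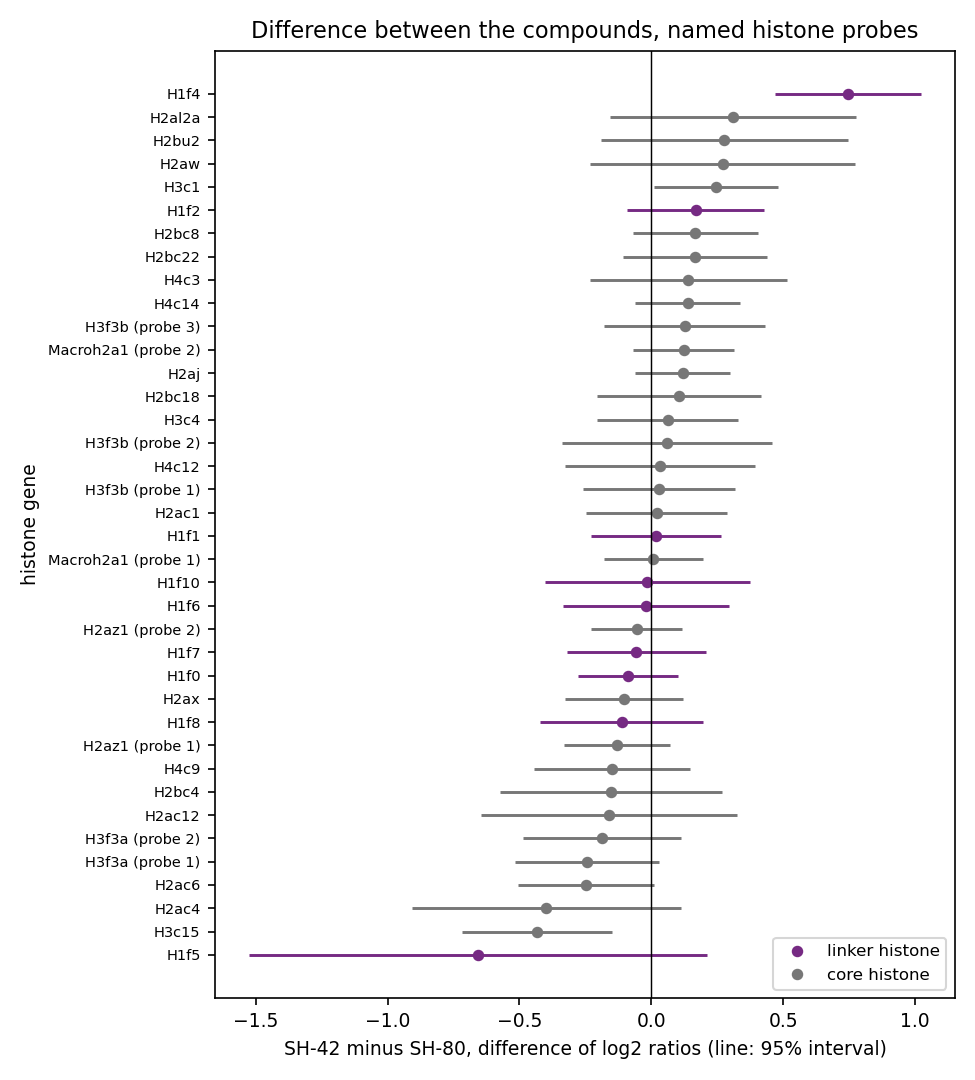
Difference of log2 ratios, SH-42 minus SH-80 (horizontal axis), for the linker probes (purple) and named core probes (grey), 1 row per probe, with several probes of a gene numbered. Among the core probes, H2bc22, H2ac4, H2aw and H2bu2 were named outside the rule. Points are the fitted differences and lines their 95% intervals. H1f4 lies at 0.74 (0.47 to 1.02) and H1f5 at -0.66 (-1.53 to 0.21), and no probe passed after adjustment.

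Genes that process histone mRNA were measured on the same arrays. Of 14 listed, 2 were higher for SH-80 and 0 lower, where 13.9% of all probes passed, 4.6% higher and 9.31% lower. Slbp, the stem-loop binding protein, was 0.38 ± 0.0681 (limma adjusted p = 0.0301), and Sympk, a scaffold of the cleavage complex, was 0.37 ± 0.0586 (limma adjusted p = 0.0287). Sympk also passed for SH-42 at 0.50 ± 0.0586 (limma adjusted p = 0.0357), and Slbp did not, at 0.26 ± 0.0681 (limma adjusted p = 0.146). The median of the 14 was 0.016 for SH-80, beside -0.027 for all probes.

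Of 18 histone chaperones, 1 was higher and 1 lower for SH-80, again beside 13.9% of all probes. Nap1l4, a nucleosome assembly protein, was 0.35 ± 0.0839 (limma adjusted p = 0.0448), and Rbbp4, a subunit of chromatin assembly factor 1, was -0.21 ± 0.0516 (limma adjusted p = 0.0478). Of 17 measured S phase genes, 1 was higher and 1 lower, beside the same 13.9%. Rrm1, a subunit of ribonucleotide reductase, was higher at 0.33 ± 0.077 (limma adjusted p = 0.0432). Tyms, which makes thymidylate, was lower at -0.34 ± 0.0573 (limma adjusted p = 0.0293). In SH-42 minus SH-80, 0 genes of the 3 lists passed by limma, beside 0% of all probes.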

How the data were processed

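RNA of pooled retinas was measured on 6 two-colour arrays on 2 slides. Slide 1 held SH-42 replicates 1 and 2, and slide 2 held SH-42 replicate 3 and all SH-80 arrays. Per the file headers, the scanner files hold the intensity of each spot and its local background in both channels, a processed signal and a log10 ratio of processed red over green. Agilent Feature Extraction is version 11.0.1.1 per the file headers and 9.3.2.1 per the submitters' processing notes. The deposited value table holds, from its values, log2 of processed Cy5 over Cy3 plus an array constant, within 0.01 for 99.7% of probes. Its column medians ran from -0.0754 to -0.0464, and which channel truly held the compound stays unknown. Spots above background made up 58.3% to 63.1% of an array in Cy3 and, in Cy5, 70.9% to 76.7%, and 0 were saturated.

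The scanner files were used here without gene names. Probes were named through the RefSeq transcript they list (26055 of 39429, 66.1%), and older histone names came from the synonyms of the reference table, whose assembly is GRCm38.p6. H2al2a entered by an alias alone. The members and lists were chosen with earlier results of these data known. Median signals were corrected by normexp (offset 50) and normalized by loess, with control and outlier spots at weight 0, and outlier spots were dropped. Channel levels were further quantile-normalized on their averages (Aquantile). Each compound had 1 coefficient in a linear model (limma 3.58.1, functions lmFit and eBayes, R 4.3.3) over 29467 probes, two-sided, with Benjamini-Hochberg adjustment and a threshold of 0.05. Figures used matplotlib 3.10.9 in Python 3.11.15. The fit was tested on simulated data with 200 of 29446 probes changed. Of changes of 0.5 log2 units, SH-42 minus SH-80 found 7% (SH-42 arrays changed) or 8% (SH-80 arrays changed). Of changes of 1 it found 55% or 47%. Against control, SH-42 found 38% of changes of 0.5 and 84% of changes of 1, and SH-80 40% and 75%.

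Named probes were every linker probe and, in each core class and kind, the 2 of smallest p for SH-80, the 1 of smallest p for SH-42 minus SH-80 and the brightest. H2ax, H2az1, Macroh2a1, H3f3a and H3f3b were always included, as were the 2 genes of smallest p for SH-80 in each list. Outside that rule, H2bc22 was named because it passed for SH-80, H2bc6 as a neighbour of H1f4, and H2ac4, H2aw, H2bu2, H3c7 and H3c14 after their values were seen. Numbers of replicates did not pair arrays: deviations of same-numbered arrays correlated at -0.144, -0.422 and 0.184. The number of arrays limits the precision.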

Additional observations from a re-analysis of the deposited data

Results flagged for a closer look

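For 4 histone probes every SH-42 array lay on one side of 0 and every SH-80 array on the other, as 1.55% of all probes did (456 of 29446). None passed the test of the difference (limma adjusted p = 0.699 for each). SH-42 minus SH-80 was 0.745 for the linker gene H1f4. It was -0.432 for H3c15, -0.309 for H3c14 and -0.309 for H3c7, which are clustered H3 genes. H3c14 had log2 ratios of -0.41, -0.19 and -0.0047 on SH-42 and 0.12, 0.15 and 0.05 on SH-80 arrays. H3c7 had -0.54, -0.05 and -0.13 on SH-42 and 0.07, 0.02 and 0.12 on SH-80 arrays.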

How the results depend on the processing

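Counts of histone probes past the threshold changed with the processing. For SH-42 against control, 1 probe in the report, it was 0 with normexp offset 0, with scale normalization, with slide as a fixed block, with the replicate block and with only the SH-42 arrays (limma), beside 0.0136% of all probes with scale normalization and 0% in the others. It was 7 without background correction (13% of all probes), 9 with the deposited value table (15.6%), 11 with the processed signals (17.8%) and 42 with median centring (37.1%), which moves the histone median to -0.494. For SH-80 against control, 5 in the report, it was 0 with scale normalization (3.2% of all probes), slide as a fixed block or the replicate block (0% in both), 10 with the processed signals (22.5% of all probes), 10 with the deposited value table (19.6%), 21 with only the SH-80 arrays (37.7%) and 21 with only slide 2 (37.6%), a setting chosen after seeing the data. Leaving out each array in turn gave 0 to 2 for SH-42, 0 to 20 for SH-80 and 0 to 0 for SH-42 minus SH-80, which was 0 under every setting run (limma). Changes of sign were looked for among the named probes only, without H2bc6, H3c7 and H3c14, and not among all probes of the counts. For SH-42, called values that changed sign were H3c1 (-1.07 with the deposited value table, -1.12 with the processed signals). With median centring they were H3f3b (-0.58 and -0.54 by 2 probes) and Macroh2a1 (-0.44). For SH-80 it was H2bc22 (0.12, median centring). H3c1 and H2bc22 were never above background in Cy3, so their signs are not read. The cause was not tested. The replicate numbers are not a pairing given by the labels. The alternative with mean spot signals was not run.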
